A study of Homo sapiens with 4 samples.

Results

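The genes described here are regulators of the PI3K-AKT pathway, and they were taken as every probe set on the array that carried exactly 1 gene symbol from a list of 8. On the kinase side the list held catalytic and regulatory subunits of class I phosphoinositide 3-kinase (PI3K) and the kinases AKT1 and AKT2. On the phosphatase side it held PHLPP1, PHLPP2 and INPP4B. Of the 8 genes, 7 had such probe sets (4 on the kinase side and 3 on the phosphatase side), and these 7 genes had 21 probe sets among 41091 probe sets of 19775 genes. The eighth gene, a catalytic subunit, is not analysed here. The genes were selected on their place in the pathway, with earlier results of these data known. PHLPP2 was selected on its difference between the same arrays. The differences of the 7 genes are therefore given as a description.

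Expression was measured on 4 oligonucleotide arrays of SNU638 cells, an established line from a human gastric cancer. On 2 arrays the cells carried a lentiviral short hairpin RNA against ACTL6A (sh-ACTL6A), and on the other 2 a scrambled hairpin (scramble). All cells were grown in serum-containing medium, and the labels describe puromycin selection of the infected cells for several days. The labels do not say which hairpin each sh-ACTL6A array carried, nor whether replicates were cultured separately. A p-value here thus covers the array-to-array spread alone. That spread may be technical, and between the sh-ACTL6A arrays it may include a difference of hairpin, which cannot be told apart.

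PI3K is switched on by growth factor receptors and adds a phosphate to an inositol lipid of the plasma membrane. The product recruits AKT, which is then phosphorylated at an activation loop and at a hydrophobic motif, and active AKT promotes growth and survival and restrains FOXO transcription factors. Phosphatases work against these steps at several points. INPP4B removes a phosphate from a lipid made from the PI3K product. PHLPP1 and PHLPP2 remove the phosphate from the hydrophobic motif of AKT. The arrays measured transcripts, and neither AKT phosphorylation nor lipid levels.

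Signals are log2 values scaled by the authors to a common level on every array, and a difference is always sh-ACTL6A minus scramble. Each array is a separate sample, so the number of arrays limits the precision. The signal threshold was a mean log2 signal of 5.63, the median over all non-control probe sets. Above it the median SD between replicates was 0.19, and below it 0.81. A gene was represented by its probe set with the highest mean signal, and 12286 genes reached the threshold. ACTL6A, the targeted gene, read 10.16 and 10.32 on the sh-ACTL6A arrays, against 11.92 and 11.82 on the scramble arrays (difference -1.63 ± 0.14, SE, limma adjusted p = 0.0408 over genes, and 0.281 with every probe set tested). The median log2 signal per array lay between 5.69 and 5.83. The bacterial spike-in control DapX read 10.37 and 10.51 on the sh-ACTL6A arrays and 9.95 and 10.24 on the scramble arrays. PheX was also higher, at 7.36 and 7.41 against 7.07 and 7.15. LysX overlapped (6.88 and 6.96 against 6.42 and 7.01), as did BioB (9.73 and 9.72 against 9.73 and 9.72). CreX was slightly lower (14.51 and 14.47 against 14.55 and 14.56). The part of these control signals in the differences below was not tested. For ACTB, a gauge of RNA integrity, the 3′ control probe set was brighter than the 5′ one on every array. The gap was 1.21 and 0.78 on the sh-ACTL6A arrays and 1.63 and 0.78 on the scramble arrays. The same gap for GAPDH was 0.22 and 0.07 against 0.29 and 0.1. In each group, both gaps were thus larger on the replicate 1 array. All 5 epithelial markers measured were above the threshold (mean log2 signal 8.60 to 14.37), whereas the 3 leukocyte markers were below it. Of 5 fibroblast and endothelial markers, 3 were above it, led by COL1A1 at 8.44, and the log2 of their summed signal was 9.25 and 9.01 on the sh-ACTL6A arrays and 9.29 and 8.91 on the scramble arrays.

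Among the 6 regulators above the signal threshold, each taken by its brightest probe set, PHLPP2 had the largest difference. PHLPP2 is a nuclear, cytosolic and membrane-associated phosphatase that acts on AKT and on protein kinase C. Its brighter probe set, 213407_at, read 10.92 and 10.59 on the sh-ACTL6A arrays and 9.81 and 9.75 on the scramble arrays. Both sh-ACTL6A arrays lay above both scramble arrays, and the gap between the groups was wider than the gap within either. Mean log2 signal was 10.76 ± 0.23 in sh-ACTL6A and 9.78 ± 0.04 in scramble (SD, n = 2 each). The difference was 0.97 ± 0.15 (SE), a fold of 1.96, and by size of difference PHLPP2 ranked 133 of the 12286 genes. Against the scramble mean, sh-ACTL6A replicate 1 was higher by 1.14 and replicate 2 by 0.81. The second PHLPP2 probe set, 214944_at, was also above the signal threshold, and it did not follow the first. It read 6.25 and 6.47 on the sh-ACTL6A arrays and 6.89 and 6.46 on the scramble arrays, with overlapping groups and a difference of -0.31 ± 0.35 (SE). With both probe sets averaged, the PHLPP2 difference was 0.33. The probe table does not say which part of the transcript each probe set reads.

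PHLPP1, the closest relative of PHLPP2 and an AKT phosphatase of the same type, had 1 probe set above the threshold. That probe set, 212719_at, read 8.34 and 8.56 on the sh-ACTL6A arrays and 8.36 and 8.31 on the scramble arrays. The groups overlapped, and the difference of 0.12 ± 0.19 (SE) was smaller than its error. Its dim probe set, 210919_at, read -0.44 and 0.56 on the sh-ACTL6A arrays and 1.22 and 2.34 on the scramble arrays. The groups did not overlap there, but these 4 signals lie far below the threshold. The difference was -1.72 ± 0.91 (SE).

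INPP4B removes the phosphate at the fourth position of a lipid made from the PI3K product, and none of its 4 probe sets reached the signal threshold. The brightest, 223878_at, read 4.29 and 5.10 on the sh-ACTL6A arrays and 5.30 and 5.26 on the scramble arrays. Both sh-ACTL6A arrays were lower, with a difference of -0.58 ± 0.59 (SE). Probe set 205376_at pointed the other way, at 4.64 and 4.40 on the sh-ACTL6A arrays against 0.81 and 2.83 on the scramble arrays (2.70 ± 0.98, SE). Both sh-ACTL6A arrays were higher there, but the scramble arrays differed from each other by more than any pair of PHLPP2 signals within a probe set. The remaining probe sets, 235046_at and 1563833_at, had overlapping groups and differences of -0.47 ± 0.90 and -0.27 ± 1.96 (SE). INPP4B was therefore not among the genes tested, and its direction was not the same across probe sets.

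**Figure D1:**
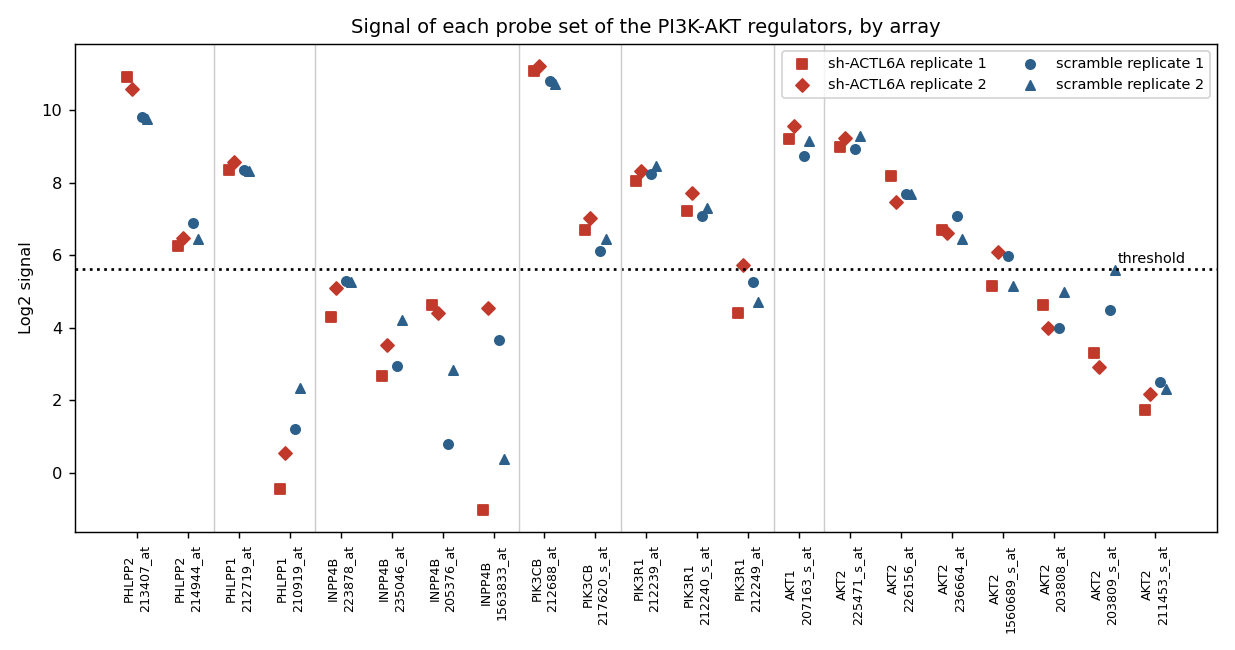
Log2 signal (vertical axis) of each probe set of the 7 genes (horizontal axis, phosphatases first and then kinases), with red squares and diamonds for sh-ACTL6A replicates 1 and 2, blue circles and triangles for scramble replicates 1 and 2, and the signal threshold of 5.63 dotted. Both sh-ACTL6A arrays lie above both scramble arrays for PHLPP2 213407_at, both PIK3CB probe sets, AKT1 and the dim INPP4B 205376_at. They lie below both for the dim AKT2 203809_s_at and 211453_s_at, PHLPP1 210919_at and INPP4B 223878_at.

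On the kinase side, PIK3CB encodes a class I catalytic subunit that can be driven by G protein-coupled receptors as well as receptor tyrosine kinases. Its bright probe set, 212688_at, read 11.07 and 11.21 on the sh-ACTL6A arrays and 10.79 and 10.72 on the scramble arrays. Its second probe set, 217620_s_at, read 6.71 and 7.04 on the sh-ACTL6A arrays and 6.11 and 6.46 on the scramble arrays. In both probe sets the groups did not overlap and sh-ACTL6A was the higher group, by 0.39 ± 0.12 and 0.59 ± 0.34 (SE). PIK3CB was the only one of the 6 genes with several probe sets whose probe sets all differed in the same direction.

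PIK3R1 encodes the regulatory subunit that stabilises the catalytic subunits and docks them to phosphorylated receptors. Its brightest probe set, 212239_at, read 8.05 and 8.32 on the sh-ACTL6A arrays and 8.24 and 8.47 on the scramble arrays (-0.17 ± 0.21, SE). The second, 212240_s_at, read 7.22 and 7.72 on the sh-ACTL6A arrays and 7.07 and 7.29 on the scramble arrays (0.29 ± 0.28, SE). The groups overlapped in both, and the signs were opposite. The remaining one, 212249_at, was below the threshold and differed by 0.10 ± 0.67 (SE).

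AKT1, the most widely expressed AKT kinase, had a single probe set, 207163_s_at. It read 9.20 and 9.57 on the sh-ACTL6A arrays and 8.73 and 9.15 on the scramble arrays, a difference of 0.44 ± 0.21 (SE). The groups did not overlap, but the lower sh-ACTL6A array and the higher scramble array were close. The replicates of each group lay further apart than those 2 arrays, with replicate 2 the brighter in both groups. The difference was 0.25 without sh-ACTL6A replicate 2, 0.23 without scramble replicate 1 and 0.65 without scramble replicate 2.

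AKT2, the isoform best known for insulin-dependent glucose uptake, had 7 probe sets, of which 3 were above the threshold. The brightest, 225471_s_at, read 8.98 and 9.23 on the sh-ACTL6A arrays and 8.94 and 9.28 on the scramble arrays, with a difference of 0.00 ± 0.19 (SE). The sh-ACTL6A arrays lay between the scramble arrays. The other bright probe sets, 226156_at and 236664_at, differed by 0.13 ± 0.29 and -0.09 ± 0.35 (SE), with overlapping groups. Of the 4 dim ones, 203809_s_at read 3.30 and 2.92 on the sh-ACTL6A arrays and 4.48 and 5.60 on the scramble arrays (-1.93 ± 0.77, SE). Probe set 211453_s_at also had both sh-ACTL6A arrays lower (-0.44 ± 0.86, SE), and the groups overlapped in 1560689_s_at (0.06 ± 0.57, SE) and 203808_at (-0.16 ± 0.73, SE).

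**Figure D2:**
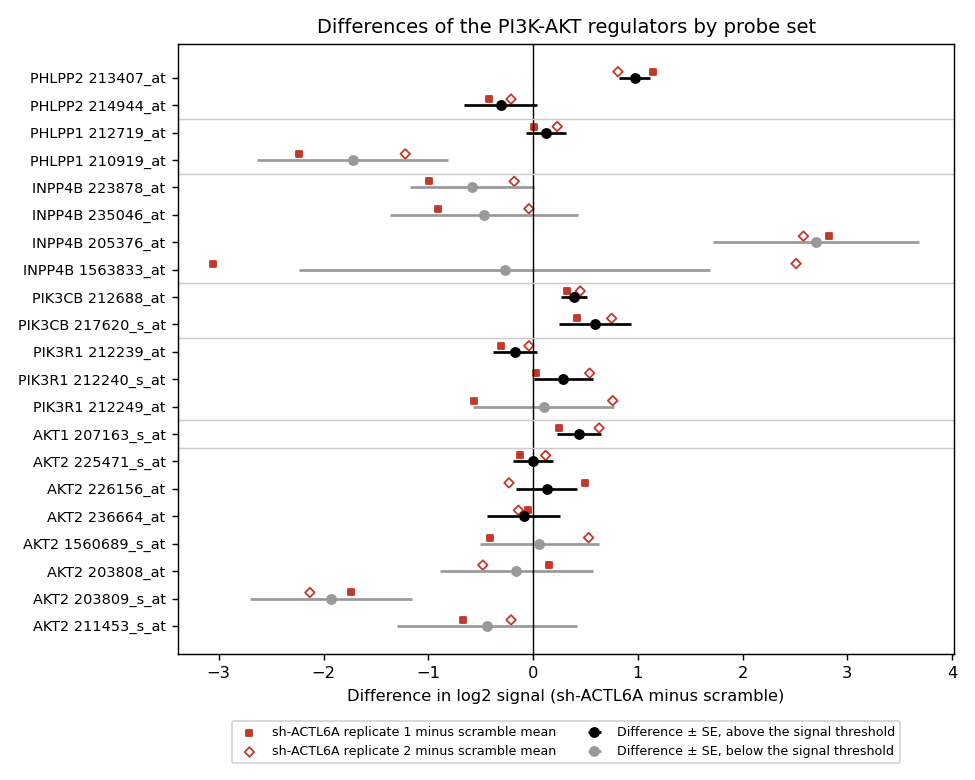
Difference in log2 signal, sh-ACTL6A minus scramble (horizontal axis), for each probe set (vertical axis), as a point with its SE, black above and grey below the signal threshold, with filled squares and open diamonds for sh-ACTL6A replicates 1 and 2 against the scramble mean. The probe sets of PIK3CB lie on the same side of 0, whereas those of PHLPP2 lie at 0.97 and -0.31.

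Over the 21 probe sets, 10 lay above 0 and 11 below, with a median difference of -0.002, beside a median of -0.004 over all 54613 probe sets tested. Both sh-ACTL6A arrays lay above both scramble arrays in 5 of the 21, where the same held for 16.7% of all probe sets, and below them in 4, where it held for 17.1%. Restricted to the 11 probe sets above the signal threshold, 4 were without overlap and higher (18.3% of all bright probe sets) and 0 were without overlap and lower (15.1%). All 4 downward separations were in dim probe sets, namely those of AKT2, PHLPP1 and INPP4B. In the limma fit across genes, none of the 6 genes tested was called at an adjusted p under 0.05, where 0.00814% of all genes (ACTL6A alone) were called. Their unadjusted p was under 0.05 for PHLPP2 and PIK3CB, where 5.5% of all genes were under it. The methods' t-test called 0 of the 6 after adjustment and had 2 under an unadjusted p of 0.05, where 5.47% of all genes were under it. With every probe set tested, none of the 21 was called, where limma called 0% of all probe sets. An unadjusted limma p under 0.05 was found for 3 higher (2.35% of all probe sets) and 1 lower (2.65%), and the methods' t-test had 2 under it (5.38%). Because these arrays also served to select PHLPP2, the counts describe the genes and support nothing further.

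**Figure D3:**
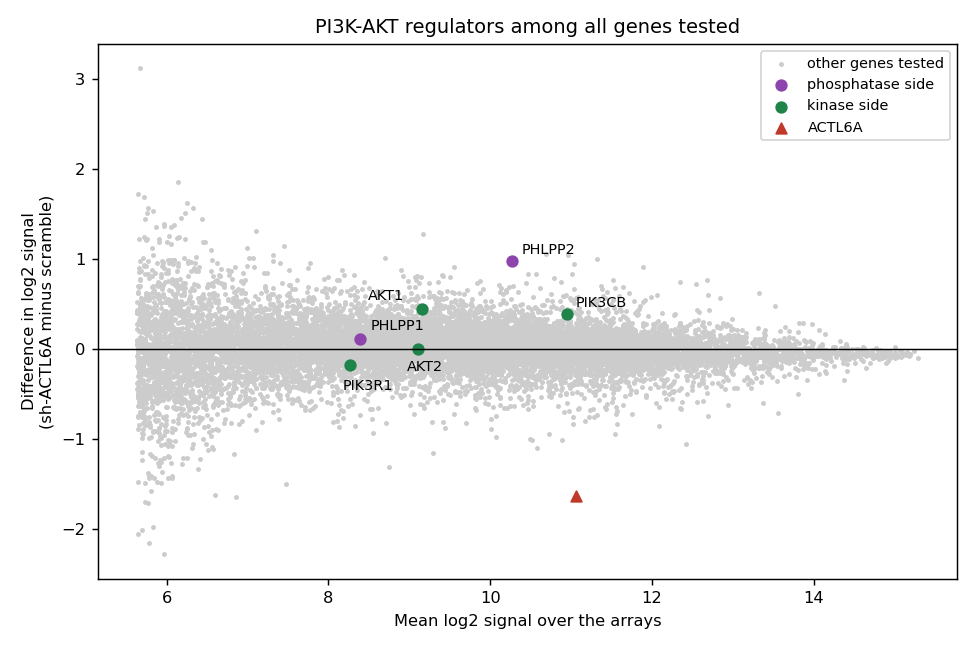
Difference in log2 signal, sh-ACTL6A minus scramble (vertical axis), of 12286 genes by their mean log2 signal on the 4 arrays (horizontal axis), with phosphatases in purple, kinases in green and ACTL6A as a red triangle. PHLPP2 lies at 0.97 and ACTL6A at -1.63, while the remaining tested regulators lie between -0.17 and 0.44.

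Set against each other, the 4 kinase-side genes had a median difference of 0.19 and the 3 phosphatases one of 0.12, each gene by its brightest probe set. The kinase median minus the phosphatase median was thus 0.07. A related contrast took the medians within each array, from signals about each gene's mean. It was 0.01 and 0.02 on the sh-ACTL6A arrays and -0.13 and 0.17 on the scramble arrays. The sh-ACTL6A arrays thus lay inside the spread of the scramble arrays. Being built from medians per array, these values do not average to the 0.07. The sign depended on how genes were counted. Without the dim INPP4B, the medians were 0.19 and 0.55 and the contrast was -0.35. With the median over all probe sets of each gene it was 0.64. That value draws on dim probe sets, through INPP4B at -0.37 and PHLPP1 at -0.8. The genes of neither side shared a common difference, since PHLPP2 and PHLPP1 differed by 0.97 and 0.12, and PIK3CB and PIK3R1 by 0.39 and -0.17.

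Among all genes tested, the 3 whose signals over the 4 arrays were nearest to those of PHLPP2, after subtraction of each gene's own mean, were ARHGEF6 (distance 0.127, log2 units), ICAM2 (0.144) and GPER1 (0.146). This ranking rests on 4 arrays. It picks genes with a difference like that of PHLPP2 by construction (0.98, 0.84 and 0.87). Their log2 signals were lower than those of PHLPP2, from 5.51 for ICAM2 to 7.35 for GPER1. On the scramble arrays ICAM2 read 5.63 and 5.51, about the signal threshold of 5.63. It was tested only through its higher sh-ACTL6A signals (6.55 and 6.28). ARHGEF6 read 5.78 on both scramble arrays, also near the threshold.

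The other genes of the pathway were described through 8 lists by role with 83 genes in all, of which 78 had a probe set and 68 were tested. Of the 68, 37 lay above 0 and 31 below, with a median difference of 0.009, the same as the median of 0.009 over all genes tested. The limma fit called 0 of them after adjustment, and the unadjusted p was under 0.05 for 2 higher genes and 1 lower gene, against 5.5% of all genes in both directions. The methods' t-test also called 0 after adjustment and had 5 of 68 under an unadjusted p of 0.05, against 5.47% of all genes. Both counts were near the share over all genes. The lists were also chosen with earlier results of these data known, so the counts are a description.

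Upstream, the 8 tested genes for other PI3K subunits and PI3K-binding proteins divided evenly around 0 (median 0.05, 4 above and 4 below). PIK3CD, the catalytic subunit best known from leukocytes, differed by 0.34 ± 0.17 (SE) and PIK3R3, a regulatory subunit, by 0.37 ± 0.21 (SE). PIK3C3, the class III lipid kinase of endosomes and autophagy, differed by -0.32 ± 0.18 (SE). With all probe sets averaged the differences were 0.08 for PIK3CD and 0.01 for PIK3R3. Of 6 tested genes for insulin receptor substrates, docking proteins and adaptors, 5 lay below 0 and 1 above (median -0.099). IRS1, the main docking protein of the insulin receptor, read 11.09 and 11.17 on the sh-ACTL6A arrays and 11.36 and 11.33 on the scramble arrays (-0.22 ± 0.13, SE), GRB10, an adaptor that dampens insulin signalling, differed by -0.24 ± 0.20 (SE) and GAB2 by -0.19 ± 0.17 (SE).

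Among the kinase that activates AKT at the membrane and the TOR complexes, 10 genes were tested, with 5 above 0 and 5 below (median -0.001). PRR5L and MAPKAP1, both of the TOR complex that phosphorylates AKT, differed by 0.68 ± 0.36 and 0.33 ± 0.18 (SE), and AKT1S1, an AKT substrate of the other TOR complex, by 0.39 ± 0.44 (SE) with overlapping groups. Averaging the 4 probe sets of each gave -0.41 for PRR5L and 0.07 for MAPKAP1.

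Of the 9 tested genes for other lipid and AKT phosphatases, 5 lay above 0 and 4 below (median 0.016). PPP2R1B, a scaffold subunit of protein phosphatase 2A, read 11.30 and 11.44 on the sh-ACTL6A arrays and 10.81 and 10.77 on the scramble arrays. The groups were well separated, and the difference of 0.58 ± 0.13 (SE) had a limma adjusted p of 0.547. It was 0.28 with the 5 probe sets of the gene averaged. PPP2CA, the catalytic subunit of the same phosphatase, read 13.14 and 12.46 on the sh-ACTL6A arrays and 13.27 and 13.19 on the scramble arrays, with most of its difference of -0.43 ± 0.20 (SE) coming from replicate 2. INPPL1, a lipid phosphatase, differed by 0.41 ± 0.29 (SE) with overlapping groups.

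The 6 tested AKT-binding modulators had a median of -0.016. The pseudokinases TRIB3 and TRIB1 differed by -0.32 ± 0.17 and -0.24 ± 0.14 (SE), and TRIB1 by -1.15 with its 3 probe sets averaged. TRIB2 had the highest difference of the 68 genes (1.56 ± 0.90, SE), and it rested on 1 array, since it read 6.18 and 6.92 on the sh-ACTL6A arrays and 6.55 and 3.42 on the scramble arrays. In the TSC, RHEB and S6 kinase branch, 7 genes were tested (median 0.06), with RPS6KB2, an S6 kinase, at 0.35 ± 0.25 (SE), TBC1D7, a subunit of the TSC complex, at 0.26 ± 0.20 (SE) and the GTPase RHEB at -0.09 ± 0.09 (SE). With all probe sets averaged, TBC1D7 stood at 0.07 and RHEB at -0.21.

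Among 10 tested AKT substrates, 8 lay above 0 and 2 below (median 0.098). CDKN1B, a cyclin-dependent kinase inhibitor that AKT keeps in the cytoplasm and FOXO factors induce, read 11.93 and 12.11 on the sh-ACTL6A arrays and 11.52 and 11.29 on the scramble arrays. Its difference was 0.62 ± 0.14 (SE), with separated groups and a limma adjusted p of 0.522. The pro-apoptotic BAD differed by 0.39 ± 0.23 (SE) and FOXO3 by 0.11 ± 0.11 (SE), or by 0.88 and 0.05 with all probe sets averaged. The other FOXO target genes, which active AKT is known to hold down, were split, with 7 of 12 tested genes above 0 and 5 below (median 0.053). KLF6, a zinc finger factor, read 13.04 and 12.99 on the sh-ACTL6A arrays and 13.36 and 13.32 on the scramble arrays (-0.32 ± 0.09, SE, limma adjusted p = 0.715). SOD2, the mitochondrial superoxide dismutase, differed by -0.33 ± 0.15 (SE) and CAT, catalase, by 0.22 ± 0.11 (SE), both with groups that did not overlap. Averaging all probe sets gave -0.21 for KLF6 and 0.05 for CAT.

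**Figure D4:**
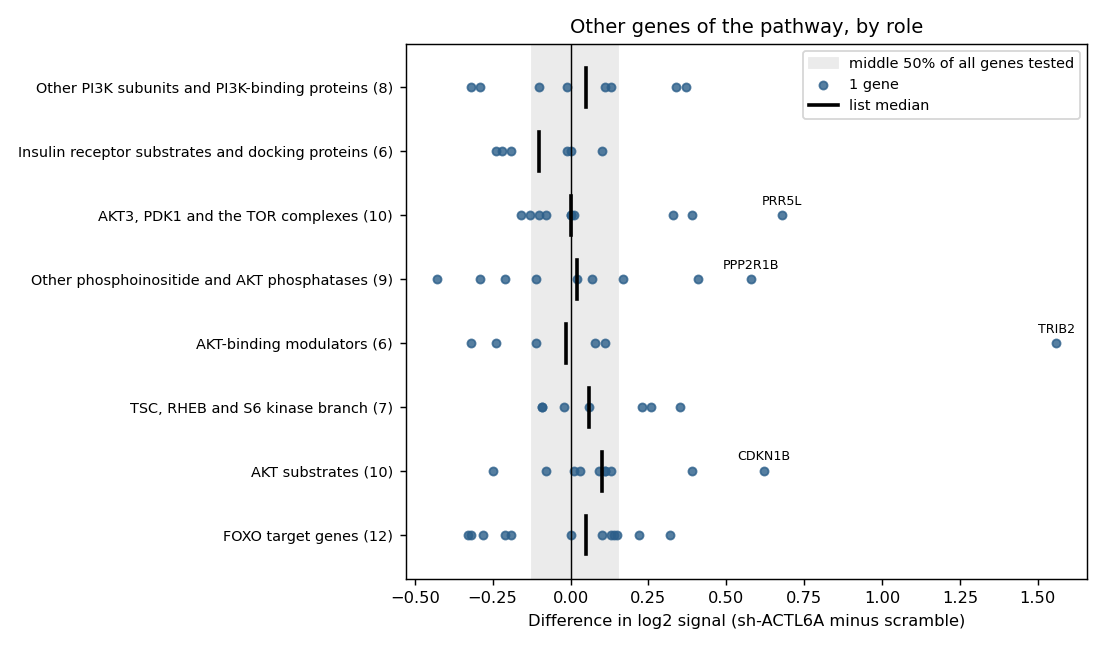
Difference in log2 signal, sh-ACTL6A minus scramble (horizontal axis), of each tested gene (blue point) in 8 lists of other pathway genes (vertical axis, number tested after each name), with a black bar at each list's median and a grey band over the middle 50% of all genes tested. List medians lie between -0.099 and 0.098, and TRIB2 stands apart at 1.56.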

How the data were processed

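For each of 4 arrays the deposited file holds 54675 log2 signals, produced by the authors with MAS5 (version not stated in the labels), which works on each array separately. The linear signals had a trimmed mean of 500.0 on all 4 arrays (2% cut from either tail). They were used without further normalisation. Genes came from the platform's probe annotation (41091 of 54613 non-control probe sets had 1 symbol, and 41037 of these were found by gene identifier in a GRCh38.p14 gene table). Differences between the 2 groups were fitted with limma 3.58.1 in R 4.3.3 (lmFit, eBayes with an intensity trend, 2-sided, Benjamini-Hochberg adjustment over all 12286 genes tested, threshold 0.05), and separately over all 54613 probe sets without a filter. Errors given as SE are moderated. SEs of the 7 regulators come from the fit over probe sets, and all others from the fit over genes. The code was tested on simulated data. The 8 regulators and the lists were chosen with earlier results of these data known. From each other list, the 3 tested genes with the smallest unadjusted p were named. Probe sets with several symbols were not used.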

Additional observations from a re-analysis of the deposited data

How the results depend on the processing

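The settings varied were the scaling (quantile or median), the filter on dim genes (none or the 75th percentile), averaging over probe sets, an offset of 2.58 before log2, the intensity trend, a replicate block, the arrays included, and the test (the methods' t-test). Chosen after seeing the data were 2 ways of counting genes in the kinase contrast, the counts of regulators called, and for the list genes the fits without an array, without the trend and by t-test. The count of 1 called gene became 0 with quantile normalisation, no filter, no intensity trend and the t-test, and 2 with the replicate block, under which 3 probe sets, in place of 0, were called. The ACTL6A difference kept its size but was not called with quantile normalisation (-1.64), no filter, no trend or the t-test (each -1.63), and it lay between -1.71 and -1.55 with 1 array left out, not called without scramble replicate 1 (-1.58) or scramble replicate 2 (-1.68). Leaving out 1 array gave between 0 and 401 called genes. Of the 6 regulators tested, 0 or 1 was called in these fits. PHLPP2 was that gene, without sh-ACTL6A replicate 1 (difference 0.81) and without sh-ACTL6A replicate 2 (1.14), where 401 and 335 of 12286 genes were called. In the wider lists 0 to 4 genes were called, CDKN1B without either sh-ACTL6A array and PPP2R1B, PPP2CA and PIK3C3 without replicate 1. A lone array is assumed there to vary like the scramble pair, whose SD for PHLPP2 was 0.04, against 0.23 for the sh-ACTL6A pair. Because these arrays also served to select PHLPP2, its calls there support nothing further. The kinase contrast of 0.07 became -0.07 with all probe sets averaged, -0.35 with dim genes left out and 0.64 with the median over probe sets, and it lay between -0.11 (without scramble replicate 1) and 0.17 with 1 array left out. For single regulators, the 21 fits with another scaling or the offset moved the difference by less than 1 replicate SD. With 1 array left out it lay between 0.81 and 1.14 for PHLPP2, 0.01 and 0.23 for PHLPP1, -0.99 and -0.18 for INPP4B, 0.32 and 0.45 for PIK3CB, -0.31 and -0.04 for PIK3R1, 0.23 and 0.65 for AKT1, and -0.17 and 0.17 for AKT2. Averaging probe sets moved all 6 genes with several by more than 1 SD and gave 0.33 for PHLPP2, -0.80 for PHLPP1, 0.34 for INPP4B, 0.49 for PIK3CB, 0.07 for PIK3R1 and -0.35 for AKT2. Same-numbered arrays had nearly uncorrelated deviations (0.0565 over 12286 genes), and the block called none of the regulators or list genes. Signals of dim probe sets limit what can be said of INPP4B, and they also enter the averages of PHLPP1, PIK3R1 and AKT2.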
